A study of Mus musculus with 9 samples.

Results

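Expression of 10 NF-kB genes was examined in the kidneys of mice that lack Trex1 and were given a STING antagonist. The 10 genes were taken by name from the 54532 genes of the count tables. They were the 5 subunit genes Rel, Rela, Relb, Nfkb1 and Nfkb2, the kinase gene Map3k14, the adaptor gene Traf3, and the feedback inhibitor genes Nfkbia, Nfkbie and Tnfaip3. Kidney RNA was sequenced from 3 groups of C57BL/6J mice, with 3 libraries per group. The WT group consisted of wild-type mice, for which the labels name no treatment. Trex1-/- mice were given either PBS or SN-011 every day for 2 weeks. TREX1 is an exonuclease that clears cytosolic DNA, and without it the DNA sensor cGAS signals through the adaptor STING. SN-011 is an antagonist of STING. Treatment began at 1 month of age, SN-011 was injected into the peritoneum at 10 mg per kg, and the PBS vehicle held 1% Tween 80. The Trex1-/- mice came from crosses of heterozygous parents, whereas the WT mice were purchased at 4 to 8 weeks of age and were not littermates. Trex1 is deleted in every cell in this model, so whole kidney mixes tubular, vascular and immune cells that all lack the gene, and in such bulk RNA fewer cells of a type cannot be told apart from less RNA per cell.

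NF-kB factors are dimers of 5 related proteins. In the canonical route, the IKK complex marks IκB inhibitors for degradation, and dimers such as RelA with p50 enter the nucleus and induce inflammatory genes, among them the genes of their own inhibitors. In the noncanonical route, receptors of the TNF family such as the lymphotoxin β receptor, CD40 and FN14 remove TRAF3, which otherwise keeps the kinase NIK (encoded by Map3k14) at a low level. NIK then drives the processing of p100 (encoded by Nfkb2) to p52, which pairs with RelB. STING can also activate NF-kB beside its main output, the interferon response. The transcript levels measured here do not show processing, phosphorylation or nuclear entry of these proteins.

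In the GRCm38 assembly with GENCODE vM21 annotation, Relb (ENSMUSG00000002983) lies at chr7:19606217-19629438 on the minus strand, and Nfkb2 lies at chr19:46304320-46312385 on the plus strand. Nfkbie (ENSMUSG00000023947), the gene of the inhibitor IκBε, lies at chr17:45555703-45563169 on the plus strand, and Nfkbia, the gene of IκBα, lies at chr12:55489410-55492647 on the minus strand. The other members are Rel at chr11:23736847-23770970, Rela at chr19:5637483-5648130, Nfkb1 at chr3:135584655-135691547, Map3k14 at chr11:103219762-103267472, Traf3 at chr12:111166370-111267153 and Tnfaip3 at chr10:19000910-19015657. The counts span the exons of each of these genes. Nfkb2 shares 18.1% of its exon bases with genes on the opposite strand, Psd and AC114539.1. Map3k14 shares 2.06% with 1700028N14Rik on its own strand. The libraries were described as strand-specific, although the TruSeq kit named for them is not a stranded one. The strand setting of the counting was not given in the sources used here, so reads over the shared bases of Nfkb2 cannot be assigned with certainty. The other 8 members share no exon bases with another gene.

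The promoters of the 2 IκB genes are shown because the levels of these 2 inhibitor genes are set side by side below. Each line gives the 250 bases before the RefSeq transcription start, 5′ to 3′ on the strand of the gene (GRCm38.p6), with the match to the κB consensus in capitals. The Nfkbie window is chr17:45555450-45555699 on the plus strand, and the Nfkbia window is chr12:55492648-55492897 on the minus strand.
Nfkbie: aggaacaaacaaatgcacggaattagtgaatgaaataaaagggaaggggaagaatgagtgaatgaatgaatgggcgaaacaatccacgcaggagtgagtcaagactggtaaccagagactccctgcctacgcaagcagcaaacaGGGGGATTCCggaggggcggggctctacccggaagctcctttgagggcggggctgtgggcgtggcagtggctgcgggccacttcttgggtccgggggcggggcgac
Nfkbia: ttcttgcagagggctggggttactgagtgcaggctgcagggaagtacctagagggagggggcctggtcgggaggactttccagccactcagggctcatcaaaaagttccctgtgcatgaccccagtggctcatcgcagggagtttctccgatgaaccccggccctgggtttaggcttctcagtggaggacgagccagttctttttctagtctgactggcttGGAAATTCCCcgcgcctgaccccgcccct

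The match begins 106 bases before the start of Nfkbie and 29 bases before that of Nfkbia. Both strands were searched for the κB consensus, for the ISRE core TTTCNNTTTC of interferon response genes and for the GAS core TTCNNNGAA of STAT targets, in windows of 250 bases before to 50 bases after each start. RefSeq windows matched 8 of the 10 members, and Nfkb1 and Relb had none. The κB consensus was found in 8 of the 11 windows of these 8 members, which belong to 6 of the 8, and in 8.46% of all 32817 windows. Genes with several starts have several windows, which can overlap. The other matches include a pair that overlap each other in Rel, of which the first reads as follows, then 2 in the first window of Nfkb2, 1 in Traf3 and 2 in Tnfaip3.
Rel, 92 bases before the start: GGGAAATCCC
Nfkb2, 39 bases before the start: GGGAATTCCC
Nfkb2, 11 bases before the start: GGGGCTTTCC
Traf3, 10 bases before the start: GGGGATTTCC
Tnfaip3, 125 bases before the start: GGGACACCCC
Tnfaip3, 12 bases before the start: GGAAATCCCC

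The match of Nfkb2 at 39 bases overlaps a further one that begins 1 base later, and its later windows hold other matches. All 250 bases before the first RefSeq start of Nfkb2 lie in GENCODE exons, as do 110 of those before the first start of Tnfaip3. GENCODE places the start of both genes further upstream, so a match before a RefSeq start can lie in transcribed sequence. Rela and Map3k14 had no match. The ISRE core was found in no window of the members, against 3.43% of all windows, and the GAS core was found only in the first window of Nfkb2, against 8.29% of all windows. A match is a description of the letters and does not show binding.

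The libraries held 16118813 to 21928965 counts, with reads for 23180 to 24657 genes. After filtering of low counts, 16646 genes were tested, all 10 members included. Trex1 was listed at 0 counts in every library, WT included, which allows at most 0.186 CPM in the shallowest library, so its counts do not check the genotype. The labels give no sex. Transcripts of 4 Y-linked genes summed to 153 CPM or more in WT replicate 3, all 3 PBS libraries and SN-011 replicate 2, and to at most 0.377 CPM in the other 4 libraries, so that the Trex1-/- PBS group is Y-positive throughout and the other groups are mixed. The labels do not say that the libraries of a group came from separate animals, so p-values measure the spread between these libraries.

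The 10 genes spanned a wide range of levels. In WT kidney, library-scaled counts (CPM) per kilobase of exon (CPM per kb) placed Nfkbia first at 31.0 ± 3.77 (SD, n = 3), followed by Rela at 19.7 ± 0.403, Nfkb2 at 5.89 ± 0.177, Nfkb1 at 3.87 ± 0.207 and Traf3 at 3.7 ± 0.158. Relb followed at 2.62 ± 0.255, Map3k14 at 2.6 ± 0.549, Nfkbie at 1.99 ± 0.14, Tnfaip3 at 1.25 ± 0.163 and Rel at 0.491 ± 0.0692. Nfkb1 and Traf3 overlapped in WT, as did Relb and Map3k14, and the other neighbours in this order did not. Nfkbia, Rela and Nfkb2 kept the top 3 places and Tnfaip3 and Rel the last 2 places in all 3 groups. Between these ends, the order of the middle 5 genes was resolved only in part in Trex1-/- kidneys. In Trex1-/- PBS, Traf3 (4.08 CPM per kb), Nfkb1 (3.91), Relb (3.9) and Nfkbie (3.02) overlapped their neighbours within this run of 4, while Nfkbie did not overlap Map3k14 (2.26), which came next. In Trex1-/- SN-011 the neighbours from Nfkb1 (4.34) through Traf3 (3.69), Relb (3.69), Map3k14 (2.95) and Nfkbie (1.95) overlapped.

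**Figure D1:**
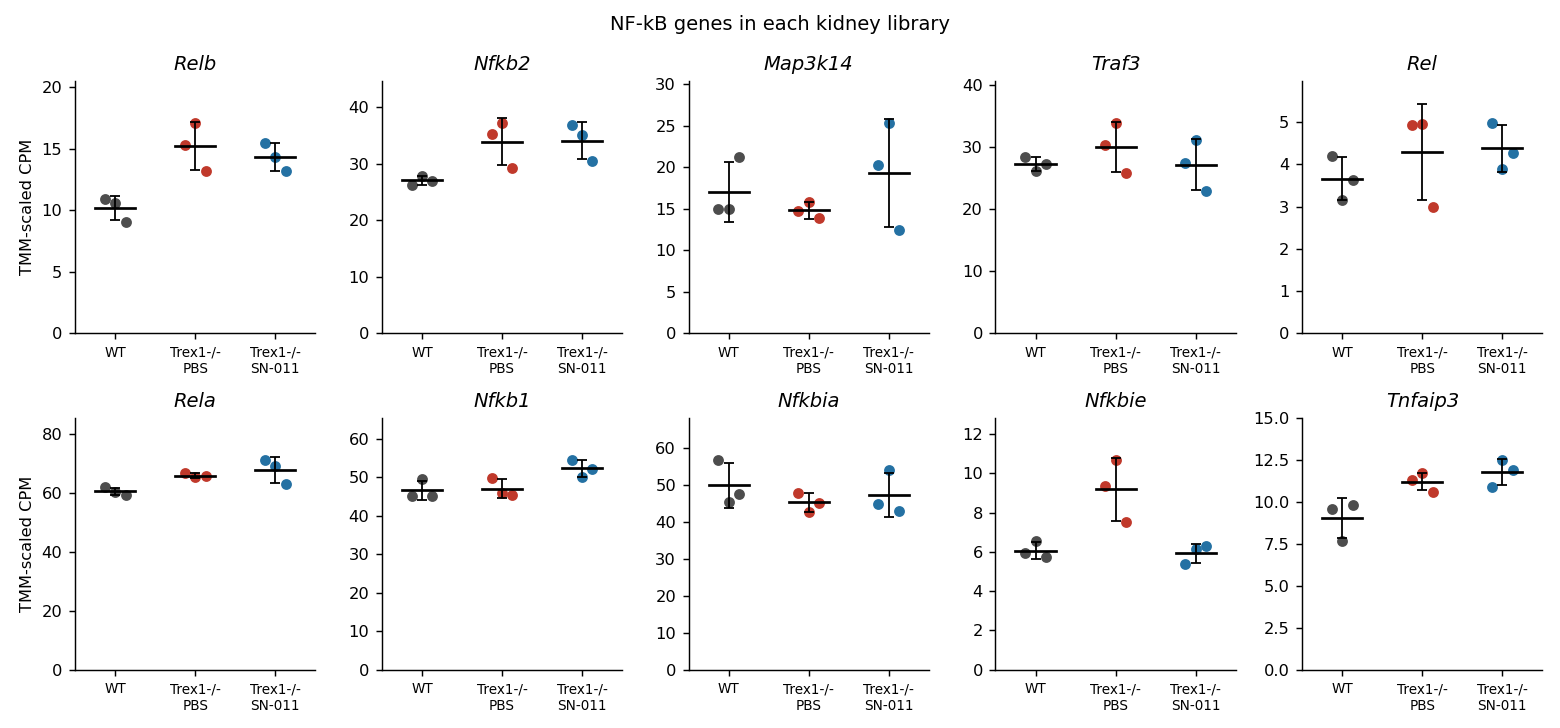
Level of each NF-kB gene in each of the 9 kidney libraries, as TMM-scaled CPM on a linear axis from 0, with 1 point per library, a bar at the group mean and whiskers of 1 SD (n = 3 per group). The Trex1-/- PBS points of Relb and Nfkbie lie above all 3 WT points, and with SN-011 the Nfkbie points return to the WT range of 5.72 to 6.54 apart from 1 at 5.38, whereas those of Relb stay between 13.2 and 15.5.

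The first comparison asked which of these genes differ between kidneys of Trex1-/- mice given PBS and WT kidneys. Relb and Nfkbie had the largest differences, with fitted folds of 1.49 and 1.51. Nfkb2 and Tnfaip3 were higher by a smaller amount, and Rel, Nfkb1, Map3k14, Traf3 and Nfkbia differed by less than the spread between libraries. None of the 10 passed edgeR's quasi-likelihood test at an adjusted p under 0.05 over all tested genes, against 1.88% of all genes. At an unadjusted p under 0.05, 4 of the 10 were higher and 0 lower, against 7.63% higher among all genes. The members were chosen with earlier results of these data known, so such counts are only a description. Each of edgeR's exact test and DESeq2's Wald test called 1 member, Relb, and limma-voom called 0, while over all genes these called 4.12%, 4.36% and 1.89%. The PBS and WT libraries did not overlap for 5 members, all higher in PBS, against 13.0% of all genes.

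Among the subunits of the noncanonical route, Relb measured 10.9, 10.6 and 9.07 CPM in WT replicates 1, 2 and 3 and 15.3, 17.1 and 13.2 CPM in those of Trex1-/- PBS. Every PBS library thus lay above every WT library. The log2 fold change was 0.57 (SE 0.134, 95% interval 0.27 to 0.87), with an edgeR quasi-likelihood adjusted p of 0.0648. The adjusted p passed the threshold in 6 of 19 alternative analyses and ranged from 0.0173 to 0.297 over them, while the log2 fold change ranged from 0.47 to 0.66. Among these was the fit without SN-011 replicate 2, a library of neither group compared (log2 fold change 0.57, edgeR adjusted p = 0.0448 over 17014 genes tested in place of 16646). Nfkb2, whose product p100 is the precursor of p52, measured 26.3, 27.9 and 26.9 CPM in WT and 35.2, 37.2 and 29.2 CPM in Trex1-/- PBS. These groups did not overlap either, although PBS replicate 3 came close to the highest WT library. The log2 fold change was 0.33 (SE 0.112), with an edgeR adjusted p of 0.2.

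For the kinase and the adaptor that set the activity of this route, WT and Trex1-/- PBS overlapped. Map3k14 measured 15.0, 14.9 and 21.2 CPM in WT and 14.7, 15.8 and 13.8 CPM in Trex1-/- PBS, so that WT replicate 3 stood above the other 5 libraries. Its log2 fold change was -0.20 (SE 0.233, 95% interval -0.72 to 0.32, edgeR adjusted p = 0.728), and -0.021 without WT replicate 3. Traf3 measured 28.3, 26.0 and 27.2 CPM in WT and 30.3, 33.8 and 25.8 CPM in Trex1-/- PBS, and the groups overlapped (log2 fold change 0.14, edgeR adjusted p = 0.662).

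Among the canonical subunits, the differences were smaller. Rela, the most abundant of the subunit genes, measured 61.9, 60.5 and 59.4 CPM in WT and 66.7, 65.3 and 65.7 CPM in Trex1-/- PBS. The groups did not overlap, but the log2 fold change was 0.12 (SE 0.0731), with an adjusted p of 0.47 in edgeR. Nfkb1, which encodes p105 and its product p50, measured 45.2, 49.6 and 45.3 CPM in WT and 49.9, 45.9 and 45.4 CPM in Trex1-/- PBS. These ranges were nearly the same, and the 95% interval of the log2 fold change was -0.16 to 0.19. Rel, the least abundant member, measured 4.19, 3.16 and 3.64 CPM in WT and 4.93, 4.96 and 2.98 CPM in Trex1-/- PBS. PBS replicate 3 lay below every WT library, so the direction differed between libraries. The log2 fold change was 0.23 (95% interval -0.29 to 0.75). It ranged from 0.10 to 0.43 on leaving out 1 library, with 0.43 reached without PBS replicate 3.

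The 3 feedback genes had log2 fold changes of either sign, and none passed the test. Nfkbie measured 5.93, 6.54 and 5.72 CPM in WT and 9.37, 10.7 and 7.51 CPM in Trex1-/- PBS, without overlap. Its log2 fold change was 0.60 (SE 0.164, 95% interval 0.23 to 0.96), with an edgeR adjusted p of 0.112 and a range of 0.055 to 0.42 over 19 alternatives. Tnfaip3 encodes A20, a ubiquitin-editing enzyme that restrains canonical signalling. It measured 9.56, 7.67 and 9.82 CPM in WT and 11.3, 11.7 and 10.6 CPM in Trex1-/- PBS, also without overlap (log2 fold change 0.31, SE 0.132, edgeR adjusted p = 0.302). Nfkbia gave the opposite sign, with 56.9, 45.5 and 47.6 CPM in WT and 48.0, 42.7 and 45.3 CPM in Trex1-/- PBS. The groups overlapped, and the log2 fold change was -0.14 (95% interval -0.40 to 0.12, edgeR adjusted p = 0.608).

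**Figure D2:**
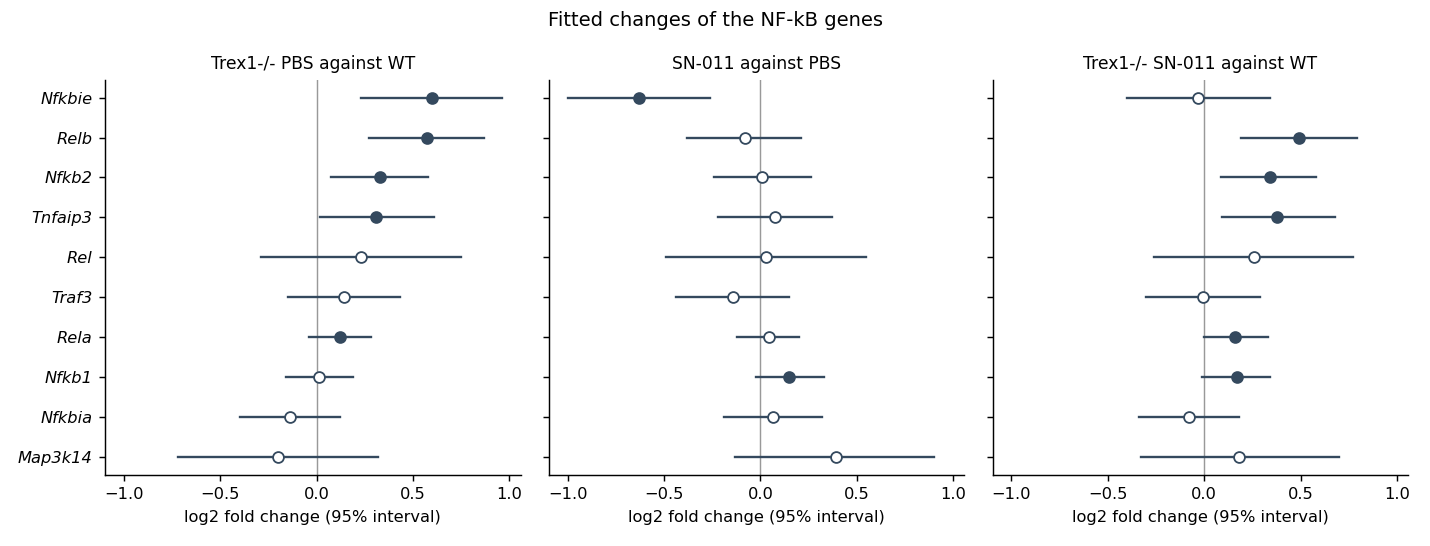
Fitted log2 fold changes of the 10 NF-kB genes in the 3 comparisons, with 95% intervals from edgeR's quasi-likelihood fit. Filled points mark genes whose 2 groups of 3 libraries do not overlap and open points those whose groups overlap. Nfkbie moves from 0.60 in Trex1-/- PBS against WT to -0.63 in SN-011 against PBS, while Relb moves from 0.57 to -0.081.

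Marker transcripts of several cell types also differed between these groups. The summed level of 12 macrophage and monocyte markers was 186 to 224 CPM in WT and 310 to 350 CPM in Trex1-/- PBS, and 5 of 12 tested markers, C1qa, C1qb, C1qc, Fcgr1 and Ly6c2, were called higher by edgeR's quasi-likelihood test. The 14 T and NK cell markers summed to 11.2 to 16.0 CPM in WT and 28.3 to 44.3 CPM in PBS, and 2 of 12 tested, Cd3g and Cd4, were called higher. The 10 kidney tissue markers were all detected, at 18200 to 20000 CPM in WT and 16400 to 17400 CPM in PBS, with 1 of 10, Slc5a2, called lower. The 10 B and plasma cell markers summed to 182 to 207 CPM in WT and 147 to 165 CPM in PBS, where 1 of 6 tested, Jchain, was called higher. Of these 6, 3 had a log2 fold change above 0 and 3 below, with a median of -0.02, so the sums do not describe the list as a whole. No marker was called among the dendritic cell markers (21.1 to 23.8 CPM in WT and 23.7 to 26.5 CPM in PBS), the neutrophil markers (2.21 to 7.22 and 6.18 to 12.2 CPM) or the endothelial markers (919 to 1040 and 832 to 891 CPM). All 5 tested neutrophil markers still had a log2 fold change above 0 (median 1.71), 2 of them at an unadjusted edgeR p under 0.05. The medians of the dendritic and endothelial lists were 0.11 and -0.022. No marker of these lists was at 0 in all 9 libraries. NF-kB genes are active in many immune cells, and the part of these markers' cell types in the differences of Relb and Nfkbie was not tested.

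Y-linked transcripts moved with the groups as well. Only WT replicate 3 and SN-011 replicate 2 could be set beside the PBS libraries in this respect. In these Y-positive libraries, Relb was 9.07 CPM in the WT library, 13.2 to 17.1 CPM in the PBS libraries and 14.3 CPM in the SN-011 library. Nfkbie was 5.72, 7.51 to 10.7 and 6.14 CPM in the same order. With a term for Y-linked reads in the edgeR fit, the log2 fold change of Trex1-/- PBS against WT was 0.66 for Relb (adjusted p = 0.109) and 0.61 for Nfkbie (adjusted p = 0.279). Map3k14 was the member this term moved most. It measured 21.2 CPM in Y-positive WT replicate 3 and 25.3 CPM in Y-positive SN-011 replicate 2, against 13.8 to 15.8 CPM in the PBS libraries, and its log2 fold change went from -0.20 to -0.56 (edgeR adjusted p = 0.276).

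The second comparison asked whether SN-011 changed these genes in Trex1-/- kidneys. Nfkbie was the only member with a fitted interval that excluded 0, and its mean with SN-011 was at the WT level. Relb, Nfkb2 and Tnfaip3 stayed at the level of the PBS group. No member passed edgeR's quasi-likelihood test at an adjusted p under 0.05, in a comparison where 0.0% of the 16646 genes did and 11.4% had an unadjusted p under 0.05. At that unadjusted threshold 1 of the 10 members was lower and 0 higher, against 5.68% lower and 5.77% higher among all genes. With 10 members, 1 such gene does not set them apart from all genes. The groups did not overlap for 1 lower member, Nfkbie, and 1 higher member, Nfkb1, against 8.42% and 7.72% of all genes. No member was called by limma-voom, the exact test of edgeR or DESeq2's Wald test either, while over all genes these called 0, 127 and 183.

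Nfkbie measured 5.38, 6.14 and 6.28 CPM with SN-011, against 9.37, 10.7 and 7.51 CPM with PBS. All 3 SN-011 libraries lay below all 3 PBS libraries. The log2 fold change was -0.63 (SE 0.165, 95% interval -1.0 to -0.26) at an unadjusted p of 0.00322 and an edgeR adjusted p of 0.246, which ranged from 0.0851 to 0.651 over 19 alternatives. The SN-011 and WT libraries overlapped for this gene, and their difference was -0.033 on the log2 scale (95% interval -0.40 to 0.34). Relb measured 15.5, 14.3 and 13.2 CPM with SN-011, within the range of the PBS libraries. Its log2 fold change against PBS was -0.081 (SE 0.133, 95% interval -0.38 to 0.21, edgeR adjusted p = 0.854). This interval overlaps that of Nfkbie, and whether SN-011 acted differently on these genes was not tested. Against WT, Relb remained higher without overlap, at 0.49 (SE 0.134, 95% interval 0.19 to 0.79, edgeR adjusted p = 0.102).

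Nfkb2 and Tnfaip3 were close to Relb in this respect. Nfkb2 measured 36.8, 35.0 and 30.4 CPM with SN-011, and its log2 fold change was 0.0087 against PBS (95% interval -0.24 to 0.26) and 0.34 against WT (edgeR adjusted p = 0.164). Tnfaip3 measured 10.9, 12.5 and 11.9 CPM with SN-011, and its log2 fold change was 0.073 against PBS (95% interval -0.22 to 0.37) and 0.38 against WT (edgeR adjusted p = 0.172). For both genes the SN-011 libraries overlapped the PBS libraries and lay above every WT library.

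Map3k14 was the most variable member with SN-011, at 20.3, 25.3 and 12.4 CPM. Replicates 1 and 2 lay above all PBS libraries and replicate 3 lay below them, and the log2 fold change of 0.39 had a 95% interval of -0.13 to 0.90 (edgeR adjusted p = 0.559). It was 0.14 without SN-011 replicate 2 and 0.63 without SN-011 replicate 3. With the term for Y-linked reads it was 0.73 (unadjusted p = 0.00283, edgeR adjusted p = 0.267). Nfkb1 measured 54.6, 50.2 and 52.3 CPM with SN-011, above all PBS libraries and all WT libraries. The difference was small, at 0.15 on the log2 scale against PBS (95% interval -0.025 to 0.33, edgeR adjusted p = 0.502). The remaining members overlapped between SN-011 and PBS. With SN-011, Rela measured 71.3, 69.2 and 63.0 CPM, Rel 4.98, 3.88 and 4.27 CPM, Traf3 27.4, 31.1 and 22.8 CPM, and Nfkbia 44.9, 54.1 and 43.0 CPM. Their log2 fold changes against PBS ran from -0.14 for Traf3 to 0.063 for Nfkbia.

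The summed immune markers are given beside these values. With SN-011, the macrophage and monocyte markers summed to 182 to 283 CPM, below all PBS libraries, the T and NK cell markers to 13.5 to 31.1 CPM, with overlap, and the B and plasma cell markers to 190 to 252 CPM. All 12 tested markers of the first list and all 12 of the second had a negative log2 fold change against PBS, with medians of -0.45 and -0.55, but none was called. Of the 6 tested B and plasma cell markers, 3 lay above 0 and 3 below, with a median of 0.053. The dendritic, neutrophil, endothelial and kidney markers summed to 25.5 to 28.7, 6.22 to 13.2, 738 to 885 and 17200 to 17600 CPM. Their part in the values of Nfkbie was not tested.

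Compared with WT, Trex1-/- kidneys given SN-011 had 5 members without overlap, all higher, against 11.8% of all genes. These were Relb, Tnfaip3, Nfkb2, Rela and Nfkb1. At an unadjusted p under 0.05, 4 members were higher, against 9.88% of all genes, and 0 passed the edgeR adjusted threshold, against 1.28%. Neither limma-voom, the exact test of edgeR nor DESeq2's Wald test called a member, while over all genes they called 1.08%, 3.59% and 4.9%. Rela and Nfkb1 differed from WT by 0.16 and 0.17 on the log2 scale, with edgeR adjusted p-values of 0.276 and 0.308. Among the cell type markers, edgeR's quasi-likelihood test called Ly6c2 and Jchain higher and Plvap lower in this comparison. All 12 tested T and NK cell markers (median log2 fold change 0.86) and all 5 tested neutrophil markers (1.6) lay above 0. Of 12 macrophage and monocyte markers, 11 lay above 0 and 1 below. The part of these cell types in the values of the members was not tested. The 3 comparisons use the same 3 groups in pairs, so their values are not independent.

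Ratios of partner genes within a library do not depend on library scaling and were compared for 3 pairs, chosen after the levels were seen, so they are given as a description. An exact permutation test of 3 against 3 libraries cannot give a p under 0.1, so it cannot decide whether the ratios differ. Its adjusted p-values were 0.18 or more. Counts per exon base were divided. The ratio of Relb to Rela was 0.14, 0.139 and 0.121 in WT, 0.181, 0.207 and 0.158 in Trex1-/- PBS and 0.172, 0.163 and 0.166 with SN-011. Both Trex1-/- groups lay above WT without overlap, and they overlapped each other. The ratio of Nfkb2 to Nfkb1 was 1.52 ± 0.0408 (SD, n = 3) in WT, 1.89 ± 0.223 in PBS and 1.71 ± 0.161 with SN-011. PBS did not overlap WT, whereas SN-011 replicate 3, at 1.53, lay within the WT range of 1.48 to 1.56.

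The ratio of Nfkbie to Nfkbia was 0.0551, 0.0761 and 0.0636 in WT, 0.103, 0.132 and 0.0878 in Trex1-/- PBS and 0.0633, 0.0599 and 0.0773 with SN-011. PBS lay above both other groups without overlap, and these overlapped each other. On the log2 scale, the difference was 0.72 in PBS against WT, -0.68 in SN-011 against PBS and 0.05 in SN-011 against WT.

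**Figure D3:**
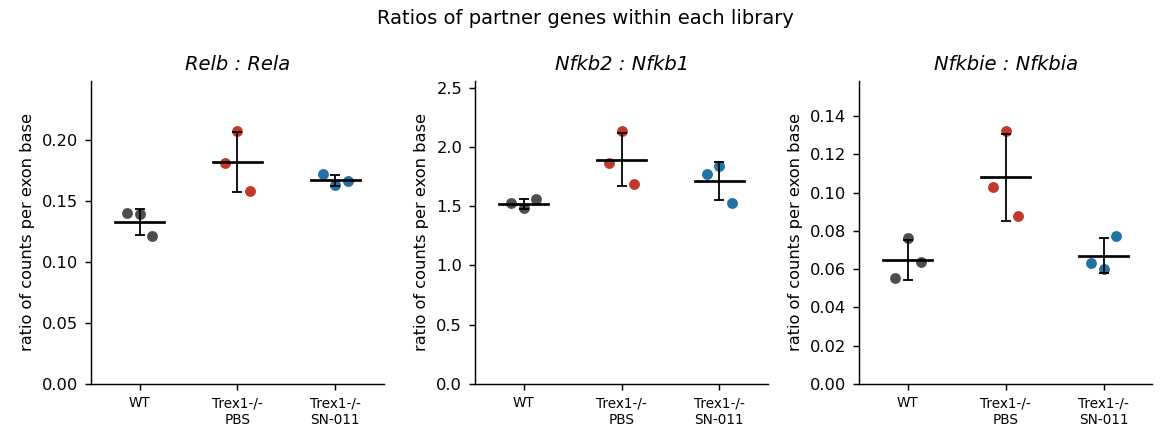
Ratios of counts per exon base between partner genes within each of the 9 kidney libraries, on linear axes from 0, with 1 point per library, a bar at the group mean and whiskers of 1 SD (n = 3 per group). The Nfkbie to Nfkbia ratio is 0.108 in Trex1-/- PBS against 0.0649 in WT and 0.0669 with SN-011, whereas the Relb to Rela ratio is 0.182 with PBS and 0.167 with SN-011 against 0.133 in WT.

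The members were set beside 4 lists of other genes of the pathway, which hold 50 signalling components, 11 ligands, 30 canonical targets and 11 noncanonical targets, and of which 79 were tested. The median log2 fold change in Trex1-/- PBS against WT was 0.18 over the 10 members, 0.093 over 48 signalling components, 0.34 over 5 ligands, 0.25 over 22 canonical targets and -0.16 over 4 noncanonical targets. The median over all 16646 genes was 0.0028. Of the 79 genes, 2 were called, both higher, which is 2.53% against 1.88% of all genes. They were Rnf31 and Tlr2. At an unadjusted p under 0.05, 21 were higher and 4 lower, and 10 of the 22 canonical targets were higher and 1 lower, against 7.63% higher and 7.58% lower among all genes. The lists were chosen with earlier results of these data known, so these shares are only a description. Of the noncanonical list, 7 genes were too low to be tested, Cxcl13, Ccl19, Ccl21a, Ccl22, Ccl17, Madcam1 and Glycam1. Most of these are genes of lymphoid tissue.

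Rnf31 encodes HOIP, the catalytic subunit of the linear ubiquitin chain complex that activates IKK. It measured 36.1, 35.0 and 34.9 CPM in WT, 51.1, 54.4 and 42.8 CPM in Trex1-/- PBS and 45.3, 45.8 and 46.8 CPM with SN-011. Both Trex1-/- groups lay above WT. In PBS against WT it rose by 0.49 on the log2 scale (SE 0.0945), with an adjusted p of 0.0284 in edgeR. The call was lost with the term for Y-linked reads, where the log2 fold change of Rnf31 was 0.50 (adjusted p = 0.0907), and in the edgeR fits without PBS replicate 1 (0.142), PBS replicate 2 (0.164), WT replicate 1 (0.114), WT replicate 2 (0.145) or WT replicate 3 (0.0651). Over all 9 fits that each left out 1 library, its log2 fold change ranged from 0.41 to 0.57. Tlr2, a receptor for bacterial lipoproteins and an NF-kB target, measured 3.95, 3.65 and 4.16 CPM in WT, 8.94, 8.05 and 7.02 CPM in PBS and 6.9, 7.0 and 6.1 CPM with SN-011. It rose by 1.03 in PBS against WT (SE 0.157, edgeR adjusted p = 0.00705) and was also called in SN-011 against WT, at 0.77 (edgeR adjusted p = 0.0479). The first call held in 17 of 19 alternatives and missed the threshold with the term for Y-linked reads and without PBS replicate 1, where the log2 fold changes were 0.95 and 0.94, at an edgeR adjusted p of 0.0505 in each. The second held in 6 of 19 alternatives. It was lost on leaving out any 1 of the 9 libraries, and with the 6 libraries of the comparison, limma-voom, upper-quartile factors and the replicate block.

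Of 6 further genes of the noncanonical route described here, none was called by edgeR's quasi-likelihood test in PBS against WT or in SN-011 against PBS, and 4 had an unadjusted p under 0.05 in each comparison. They were named for low p-values in their lists, so these counts do not describe the route. Bcl3, an atypical IκB that acts with p52, measured 7.72, 7.08 and 9.3 CPM in WT, 12.6, 12.4 and 11.2 CPM in Trex1-/- PBS and 10.4, 9.55 and 8.24 CPM with SN-011. PBS lay above WT without overlap (log2 fold change 0.59, edgeR adjusted p = 0.0804), and Bcl3 was called without WT replicate 3 (0.0474), by edgeR's exact test (0.0301) and by DESeq2's Wald test (0.0242). Tnfsf12, which encodes TWEAK, the ligand of FN14, measured 19.6, 18.0 and 19.3 CPM in WT, 14.0, 13.6 and 12.8 CPM in PBS and 15.1, 12.9 and 15.7 CPM with SN-011. Both Trex1-/- groups lay below WT, and the log2 fold change in PBS was -0.49 (SE 0.108, edgeR adjusted p = 0.0515). Tnfsf12 was called in PBS without SN-011 replicate 2 (0.0198), in the fit of the 6 libraries (0.0273), with DESeq2's size factors (0.0434), by edgeR's exact test (0.0177) and by DESeq2's Wald test (0.00948). Tnfrsf12a, which encodes FN14 itself, measured 14.5, 11.2 and 18.0 CPM in WT, 18.4, 20.3 and 16.9 CPM in PBS and 47.0, 86.7 and 15.1 CPM with SN-011. Its log2 fold change in PBS against WT was 0.35 (edgeR adjusted p = 0.771). SN-011 replicates 1 and 2 stood above all other libraries and replicate 3 did not. The log2 fold change in SN-011 against PBS was 1.42 (SE 0.467, edgeR adjusted p = 0.305). It was 0.74 without SN-011 replicate 2 and 1.86 without SN-011 replicate 3, and over the fits that left out 1 library the edgeR adjusted p ranged from 0.0388, without SN-011 replicate 3, to 0.654. Ltb, which encodes lymphotoxin β, had a log2 fold change of 1.03 in PBS against WT (edgeR adjusted p = 0.19) and -0.64 in SN-011 against PBS (edgeR adjusted p = 0.508), which was -0.35 without SN-011 replicate 1 and -0.94 without SN-011 replicate 2. For Tnfsf13b, which encodes the B cell factor BAFF, the values were 0.52 and -0.85 (edgeR adjusted p = 0.413 and 0.313), and SN-011 did not overlap PBS. On leaving out 1 library, the values of Tnfsf13b ranged from 0.29 to 0.65 and from -0.98 to -0.64. Cd40 had a log2 fold change of 0.55 in PBS against WT (unadjusted p = 0.0462, edgeR adjusted p = 0.319) and of -0.85 in SN-011 against PBS, the latter also without overlap (edgeR adjusted p = 0.278).

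Bcl10, a scaffold of antigen receptor signalling to IKK, measured 23.5 ± 2.38 CPM (SD, n = 3) in WT and 29.0 ± 1.55 CPM in Trex1-/- PBS (log2 fold change 0.30, edgeR adjusted p = 0.185). Among targets of the canonical route, the complement gene C3 measured 67.8, 55.0 and 79.3 CPM in WT, 115, 96.4 and 90.6 CPM in Trex1-/- PBS and 70.1, 72.5 and 70.9 CPM with SN-011. PBS lay above both other groups without overlap, at 0.58 against WT (edgeR adjusted p = 0.0614), and SN-011 lay below PBS at -0.50 (edgeR adjusted p = 0.25). C3 was called in PBS against WT without SN-011 replicate 2 (0.0385), without WT replicate 3 (0.021), without a filter (0.00926), by edgeR's exact test (0.0112) and by DESeq2's Wald test (0.00497). The chemokine gene Ccl2 was low throughout, with 3, 18 and 4 counts in WT and 23, 42 and 29 counts in PBS. Its log2 fold change was 2.20 (SE 0.514, edgeR adjusted p = 0.0646), and without WT replicate 2 it was 3.32 (edgeR adjusted p = 0.0118). It was also called without SN-011 replicate 2 (0.0434), without a filter (0.00659) and by edgeR's exact test (0.000634), DESeq2's Wald test (0.00241) and limma-voom (0.0414). With SN-011 it held 27, 25 and 34 counts, so that SN-011 and PBS overlapped. Ccl5, a chemokine of T cells and macrophages, measured 3.06, 2.62 and 3.35 CPM in WT, 9.37, 9.5 and 9.56 CPM with PBS and 1.53, 7.06 and 5.16 CPM with SN-011. PBS lay above both other groups without overlap. The log2 fold change of Ccl5 in PBS against WT was 1.66 (edgeR adjusted p = 0.0738), and it was called by edgeR's exact test, by DESeq2's Wald test, in the fit of the 6 libraries, without a filter and without SN-011 replicate 1 or 2. In SN-011 against PBS it was -1.05 (edgeR adjusted p = 0.361), with -0.63 without SN-011 replicate 1 and -1.51 without SN-011 replicate 2.

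The 4 tested genes of the noncanonical target list split by direction. Enpp2, the gene of autotaxin, measured 273 ± 13.4 CPM (SD, n = 3) in WT and 343 ± 30.4 CPM in Trex1-/- PBS (log2 fold change 0.33, edgeR adjusted p = 0.21). The costimulatory ligand gene Icosl and the complement receptor gene Cr2 had values of -0.35 and -0.52 (edgeR adjusted p = 0.287 and 0.343). In SN-011 against PBS, Icosl had a log2 fold change of 0.28 (edgeR adjusted p = 0.501) and the chemokine gene Cxcl12 one of -0.30 (edgeR adjusted p = 0.594), each with overlap. On leaving out 1 library, these ranged from 0.13 to 0.38 for Icosl and from -0.57 to -0.14 for Cxcl12. Over the 4 pathway lists, no gene was called by edgeR's quasi-likelihood test in SN-011 against PBS, where an unadjusted p under 0.05 was reached by 4 of the 79 genes that were higher and 7 that were lower, against 5.77% and 5.68% of all genes. Neither limma-voom, the exact test of edgeR nor DESeq2's Wald test called one. The list medians there were -0.039, 0.11, -0.18 and -0.045 in the order given above.

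**Figure D4:**
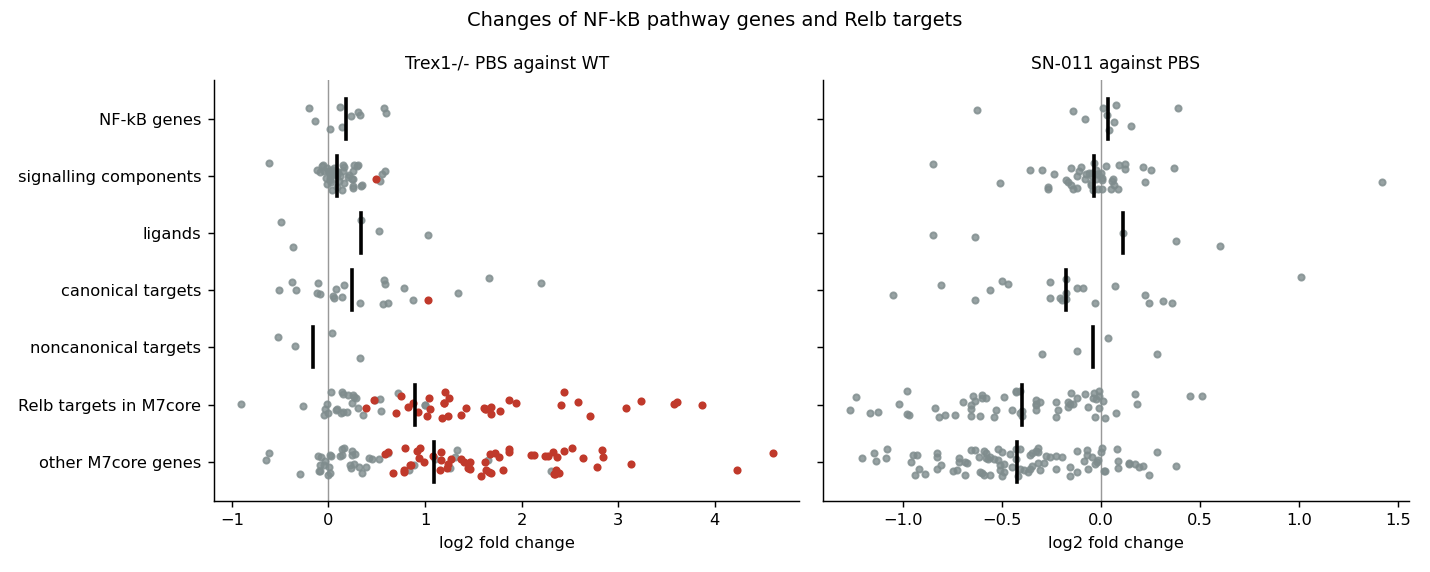
Log2 fold changes of every tested gene of the NF-kB lists and of M7core, with 1 point per gene, a black bar at each median, and red for an edgeR adjusted p under 0.05; the vertical spread of points within a list is for display only. In Trex1-/- PBS against WT the 10 NF-kB genes have a median of 0.18 and 62 Relb targets one of 0.9, and in SN-011 against PBS no gene is red.

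Of M7core, a list of genes that the study derived in fibroblasts with an activated cGAS-STING pathway, 62 genes are annotated by the study as targets of Relb. In Trex1-/- PBS against WT, 35 of the 62 were called higher by edgeR's quasi-likelihood test and 0 lower (56.5%, median log2 fold change 0.9), beside 1.88% of all genes called in either direction. Among the other tested M7core genes, 54 of 94 were called higher and 0 lower (57.4%, median 1.09), so that Relb targets and the rest had similar shares. The 3 Relb targets with the smallest p are interferon-stimulated genes. Cxcl10, a chemokine gene, rose by 3.61 on the log2 scale, Oasl1 by 3.58 and Isg15, a ubiquitin-like modifier gene, by 3.24, with standard errors of 0.263, 0.268 and 0.272 and edgeR adjusted p-values of 0.000127, 0.000128 and 0.000212. The differences of Relb itself, 0.57, and of Nfkb2, 0.33, were smaller than these on the same scale. With SN-011, 0 of the 62 were called by edgeR's quasi-likelihood test against PBS and 33 were lower at an unadjusted p under 0.05 (median -0.4), beside 0 and 52 of the 94 others (median -0.42). Of all genes, 0.0% were called in this comparison and 5.68% were lower at that unadjusted p. Isg15 had a log2 fold change of -1.27 and Cxcl10 of -1.17 (edgeR adjusted p = 0.203 each, and 0.0266 and 0.0127 without SN-011 replicate 2). Under DESeq2's Wald test their adjusted p-values were 0.000248 and 0.000804. Against WT, 19 of the 62 (30.6%) were called higher with SN-011, beside 32 of the 94 (34.0%) and 1.28% of all genes called in either direction.

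Likeness to Relb was described by Pearson's r of log2 CPM over the 9 libraries, among 14837 tested genes with a mean of at least 1 CPM. The 9 points share their 3 groups, so a gene that differs between the groups in the same way gives a high r. The highest values were those of Gm17501 (0.958), Zfp91 (0.955), Lag3 (0.95), Gm49405 (0.944) and Kdm5a (0.944). Among the members, Nfkb2 came nearest, at 0.923 and rank 19 of the 14837. Rela followed at 0.82, Tnfaip3 at 0.696, Rel at 0.628, Nfkbie at 0.563, Traf3 at 0.465 and Nfkb1 at 0.406. Map3k14, at -0.034, and Nfkbia, at -0.307, did not follow Relb over these libraries.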

How the data were processed

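PolyA RNA of 9 mouse kidney libraries was sequenced as read pairs. The authors trimmed the reads with Trimmomatic, aligned them with HISAT2 and deposited raw counts of uniquely mapped pairs per Ensembl gene from featureCounts, on build mm10 per the submitters' notes. Versions, annotation and strand setting are not given in the sources used here. Symbols and positions came from GENCODE vM21 (GRCm38), which matched 54495 of 54532 identifiers, and promoter windows from RefSeq (GRCm38.p6).

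The deposited counts were tested with edgeR 4.0.16 under R 4.3.3. Low genes were removed with filterByExpr (minimum count 10, total 15), TMM factors set the library sizes, and 1 quasi-likelihood model with group means held all 9 libraries. A gene was called at a Benjamini-Hochberg adjusted p under 0.05 over all 16646 tested genes. CPM values carry TMM factors. Standard errors were derived from the F statistic and intervals are at 95%. Floors for a count of 0 (3 counts) cover counting error only. The steps were tested on simulated data.

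The members and lists were chosen with earlier results of these data known. Named genes were the 10 members, and from each pathway list and the Relb targets of the study's M7core list (membership only) the 3 genes of lowest p in Trex1-/- PBS against WT and the 2 of lowest p in SN-011 against PBS, plus the 5 genes most like Relb and any gene of a count of 5 or fewer. Alternatives were other scalings, filters and tests (DESeq2 1.42.0, edgeR's exact test, limma-voom with limma 3.58.1), a fit of 6 libraries only, blocking on replicate number, a term for Y-linked reads (sum above 10 CPM) and leaving out each library. The study's own comparisons were not used.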

Additional observations from a re-analysis of the deposited data

How the results depend on the processing

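Over the alternatives, 545 values of the members kept their direction and side of the threshold, 6 passed it with the same direction, all of them Relb in Trex1-/- PBS against WT, and 19 changed sign, all with an adjusted p above the threshold. For Trex1-/- PBS against WT, members called went from 0 to 1 in the fit of the 6 libraries, under edgeR's exact test, DESeq2's Wald test and no filter on low counts, and ranged from 0 to 1 when 1 library was left out. Pathway genes called went from 2 to 7 with the 6 libraries, 10 under DESeq2's Wald test, 0 with the Y-linked term, 10 under the exact test and 8 without a filter, and ranged from 0 (without PBS replicate 1) to 10 (without SN-011 replicate 2) on leaving out 1 library. For SN-011 against PBS, members called stayed at 0, and pathway genes called went from 0 to 1 (Tnfrsf12a) without a filter and from 0 to 1 on leaving out 1 library (Chuk without SN-011 replicate 2, Tnfrsf12a without replicate 3). For SN-011 against WT, pathway genes called went from 1 to 0 with the 6 libraries, 4 under DESeq2, 3 with the Y-linked term, 3 under the exact test, 0 with limma-voom, 3 without a filter and 0 with upper-quartile factors, and from 0 to 1 on leaving out 1 library, where Tlr2 was called in none of the 9 fits. The signs that turned were those of Nfkb1 in PBS against WT with upper-quartile factors (-0.013), Rel in SN-011 against PBS with the Y-linked term (-0.064) and Nfkb2 in that comparison without a filter (-0.0025). On leaving out 1 library, Nfkb1 in PBS against WT ranged from -0.037 to 0.058. In SN-011 against PBS, Rel ranged from -0.17 to 0.15, Relb from -0.17 to 0.02, Nfkb2 from -0.082 to 0.091 and Nfkbia from -0.049 to 0.13. In SN-011 against WT, Map3k14 ranged from -0.06 to 0.42, Traf3 from -0.12 to 0.11, Nfkbia from -0.19 to 0.026 and Nfkbie from -0.078 to 0.032. The cause of these changes was not tested. Over all genes, calls ranged from 153 to 774 in PBS against WT, from 0 to 519 in SN-011 against PBS and from 38 to 816 in SN-011 against WT, with 519 reached without SN-011 replicate 2.

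The labels number the replicates alike in the 3 groups, but same-numbered libraries of WT and Trex1-/- PBS had correlations of 0.133, -0.00809 and 0.102 in their deviations from the group means, so the numbers were not taken to pair the libraries. With the replicate block, 1 member (Relb, edgeR adjusted p = 0.0457) was called in PBS against WT in place of 0, and pathway genes called in SN-011 against WT went from 1 to 0. Between PBS and SN-011, each library correlated best with its own number (0.198, 0.242 and 0.0981), a hint from the data and not from the design. Over all genes the block gave 312 calls in PBS against WT in place of 313.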
